A study of Mus musculus with 12 samples.

Results

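Ifi27, Ifi27l2a and Ifi27l2b are neighbouring mouse genes of the family known as ISG12, whose members encode small hydrophobic proteins. Their RNA was followed in cultured primary smooth muscle cells of the mouse aorta, which give the artery wall its contractility. The members were taken by gene symbol and are 3 of the 55822 rows of the table. All 3 passed the filter on low counts and were among the 16140 genes tested. The family was chosen by its log2 fold changes between medium of stimulated and of naive macrophages, which had opposite signs among the members. The members' values in stimulated medium are therefore given as a description, with no test. Only the comparison of naive macrophage medium with regular medium was tested for them. The libraries of naive macrophage medium also entered the choice, so this test is not independent of it.

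The 12 libraries form 3 groups of 4. Cells of the group called IFNγ/LPS CM received conditioned medium of bone marrow-derived macrophages that had been primed overnight with 20 ng/mL interferon gamma, stimulated for 4 hours with 100 ng/mL lipopolysaccharide, and washed. Cells of the group called naive CM received medium of control macrophages. Both conditioned media contained serum at 0.3% and the macrophage growth factor M-CSF at 10 ng/mL, and were left on the muscle cells for 24 hours after 48 hours of serum starvation. The group called regular medium was kept in growth medium, and the labels state neither its composition nor whether those cells were starved. The labels number biological replicates but give no strain, age or number of animals, so a p-value reflects only how these libraries varied, which may be technical. The table names the conditioned media M1 and M0, taken here as IFNγ/LPS CM and naive CM by common usage, and every direction depends on that reading.

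Genes of this family are classical targets of type I interferon, which acts through the receptor chains Ifnar1 and Ifnar2 and transcription factors that include Stat2 and Irf9. Human IFI27 protein has been found at mitochondria, where it can favour apoptosis, and its RNA in blood is widely used as a sign of viral infection. In mice, Ifi27l2a limits infection of the brain by some RNA viruses. In mouse blood vessels, an ISG12 protein was shown to bind nuclear receptors of the Nr4a group and to promote their export from the nucleus.

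The genes lie side by side on chromosome 12 (GRCm38, the same build as mm10, GENCODE M21 annotation). Ifi27 (ENSMUSG00000064215.14 in the table) lies at 103434211 to 103440239 on the plus strand, Ifi27l2a (ENSMUSG00000079017.4) at 103442167 to 103443680 on the minus strand and Ifi27l2b (ENSMUSG00000021208.10) at 103450898 to 103457223 on the minus strand. The gaps between them measured 1927 and 7217 bp. The longest coding sequences had 783, 273 and 852 nt, in transcripts of 977, 463 and 1093 nt.

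The coding sequences below, from the GENCODE M21 transcripts, show how far the paralogs can be told apart in the counts and how they are built. Each stretch runs 5′ to 3′ along the coding strand, and positions are counted from 1 at the start codon. Capitals mark the longest run shared by Ifi27l2a and Ifi27l2b, of 51 bases, which occurs at position 109 of both and again at position 484 of Ifi27l2b. In Ifi27, capitals mark the longest run shared with Ifi27l2a, of 11 bases.
Ifi27l2a, 171 bases from position 49: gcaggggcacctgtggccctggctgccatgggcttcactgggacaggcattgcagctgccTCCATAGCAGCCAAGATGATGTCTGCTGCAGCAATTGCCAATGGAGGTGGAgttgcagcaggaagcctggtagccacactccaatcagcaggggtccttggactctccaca
Ifi27l2b, 171 bases from position 49: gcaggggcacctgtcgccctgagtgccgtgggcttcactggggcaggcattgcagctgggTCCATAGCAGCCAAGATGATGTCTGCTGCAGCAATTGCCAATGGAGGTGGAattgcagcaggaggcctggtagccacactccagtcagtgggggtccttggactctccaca
Ifi27l2b, 171 bases from position 424: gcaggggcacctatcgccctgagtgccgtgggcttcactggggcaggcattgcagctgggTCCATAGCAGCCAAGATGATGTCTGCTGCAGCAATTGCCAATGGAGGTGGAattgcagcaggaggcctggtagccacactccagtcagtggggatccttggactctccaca
Ifi27, 171 bases from position 415: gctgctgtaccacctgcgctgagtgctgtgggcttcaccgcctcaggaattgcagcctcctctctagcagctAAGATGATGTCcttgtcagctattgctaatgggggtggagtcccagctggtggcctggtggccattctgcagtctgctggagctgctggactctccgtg

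Ifi27l2b thus carries this unit of the family in 2 copies, which matched each other at 98.8% of 171 bases. Against Ifi27l2a the copies matched at 93.0% and 91.8% of the bases, and the Ifi27 stretch matched at 70.2%. Over the annotated transcripts, 26 of the 433 different 31-base words of Ifi27l2a (6.0%) also occurred in Ifi27l2b, and none was shared with Ifi27. Reads from the shared run could be split between Ifi27l2a and Ifi27l2b by the estimate, so small differences between these 2 are uncertain. In the RefSeq models, unlike those of GENCODE M21, Ifi27l2a spans Ifi27 on the same chromosome (6057 bp of overlap). The kit marks strand, but the sources used here name neither the strand setting nor the annotation used for counting.

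The libraries held 28097496 to 61493375 estimated counts. Of 12 smooth muscle markers, 6 had a mean under 1 CPM (counts per 1000000 of the TMM-scaled total) with IFNγ/LPS CM, 3 with naive CM and 3 with regular medium. Their summed level was 1040 to 1090 CPM in IFNγ/LPS CM, 1260 to 1360 CPM in naive CM and 1680 to 1840 CPM in regular medium. With IFNγ/LPS CM most of that sum was Pdgfrb (782 CPM), while 8 of the 12 markers were lower than with naive CM, 7 of them at least 2-fold, 2 were higher and 2 missed the threshold (median log2 fold change -1.53). Acta2, smooth muscle actin, was 2.85-fold lower and Tagln, an actin-binding protein gene, 19.6-fold lower. Tagln had 0.550 CPM with IFNγ/LPS CM, from 78 counts over the 4 libraries, and 10.8 CPM with naive CM. The markers Myh11, Cnn1 and Des were under 1 CPM in all 3 media. Myh11 had 0.203 CPM in IFNγ/LPS CM, 0.592 CPM in naive CM and 0.716 CPM in regular medium. In the same order, Cnn1 had 0.0553, 0.149 and 0.276 CPM and Des 0.456, 0.458 and 0.464 CPM. Of 16 macrophage markers, 12 were under 1 CPM in IFNγ/LPS CM, 13 in naive CM and 14 in regular medium, and their sum was 58.8 to 69.8 CPM in IFNγ/LPS CM, 33.1 to 36.5 CPM in naive CM and 33.5 to 35.2 CPM in regular medium. The pan-leukocyte gene Ptprc had 1 count in IFNγ/LPS CM, 3 in naive CM and 3 in regular medium, and Fcgr1 had none in any library. Of the 5 macrophage markers tested, 4 were higher with IFNγ/LPS CM than with naive CM, each at least 2-fold, and 1 (Mertk) was lower. In that comparison 36.1% of all genes were called higher and 35.8% lower. Csf1r had 4.62 CPM with IFNγ/LPS CM and 0.203 CPM with naive CM, and Cd68 had 6.19 and 1.07 CPM. Cd14, an endotoxin co-receptor, made up most of the macrophage sum with IFNγ/LPS CM, at 42.9 ± 3.56 CPM (SD, n = 4). The part of these marker levels in the results was not tested. Of 10 endothelial markers, 9 were under 1 CPM with IFNγ/LPS CM and 10 with either other medium. The 8 adventitial fibroblast markers summed to 2290 to 2600 CPM with IFNγ/LPS CM, 261 to 280 CPM with naive CM and 105 to 112 CPM with regular medium, and nearly all of the first sum was Ly6a (2379 CPM). Of the 7 tested, 2 were higher with IFNγ/LPS CM than with naive CM (Ly6a and Pdgfra), 4 were lower (Cd34, Dpp4, Pi16 and Dpt) and 1 missed the threshold, with a median log2 fold change of -1.56. In bulk RNA, fewer cells of a type and less RNA per cell cannot be told apart.

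Ifi27 was lowest with the medium of stimulated macrophages. Its level was 25.6, 25.1, 24.6 and 21.2 CPM in the 4 IFNγ/LPS CM libraries. It was 116, 123, 115 and 129 CPM in the naive CM libraries, and 89.8, 82.2, 73.9 and 77.4 CPM in the regular medium libraries. The 3 groups did not overlap, and every IFNγ/LPS CM library lay below all others. Libraries of IFNγ/LPS CM and naive CM did not overlap for 69.5% of all genes tested, those of IFNγ/LPS CM and regular medium for 65.2%, and those of naive CM and regular medium for 32.7%.

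Relative to naive CM, the Ifi27 level in IFNγ/LPS CM was 5.00-fold lower (log2 fold change -2.32, SE 0.068), and relative to regular medium it was 3.35-fold lower (log2 fold change -1.75, SE 0.067). Of the 16140 genes, 891 had a lower log2 fold change between IFNγ/LPS CM and naive CM. Ifi27 also rose in naive CM relative to regular medium, 1.49-fold (log2 fold change 0.58, SE 0.062, edgeR quasi-likelihood test, adjusted p = 1.58e-06, higher in 4 of 4 libraries). Its levels thus ran lowest in IFNγ/LPS CM, intermediate in regular medium and highest in naive CM.

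Ifi27l2a was highest with the medium of stimulated macrophages and lowest with regular medium. It stood at 22.0, 24.7, 24.3 and 24.4 CPM in the IFNγ/LPS CM libraries. The naive CM libraries had 5.84, 5.50, 7.22 and 7.03 CPM, and the regular medium libraries 1.56, 1.42, 1.58 and 2.09 CPM. These last values rest on 336 estimated counts over the 4 libraries. The 3 groups again did not overlap, in the order regular medium, naive CM, IFNγ/LPS CM.

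The level of Ifi27l2a in IFNγ/LPS CM was 3.74-fold higher than in naive CM (log2 fold change 1.90, SE 0.103) and 14.4-fold higher than in regular medium (3.85, SE 0.118). In naive CM it rose 3.85-fold over regular medium (log2 fold change 1.94, SE 0.118, edgeR adjusted p = 5.10e-10, higher in 4 of 4 libraries). Only 110 of the 16140 genes had a higher log2 fold change in that comparison, in which 34.7% of genes passed the test (18.3% as higher, 16.4% as lower, and 2.87% as higher by at least 2-fold). Starvation, low serum and M-CSF are labelled for the naive CM cells and not for regular medium, so their part and that of the macrophage products cannot be told apart.

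Ifi27l2b followed neither of these orders. It stood at 23.8, 23.3, 23.2 and 22.3 CPM in IFNγ/LPS CM, at 44.2, 44.1, 38.6 and 40.6 CPM in naive CM and at 17.1, 16.5, 18.3 and 20.2 CPM in regular medium. It was highest in naive CM, and the IFNγ/LPS CM libraries lay between the other groups, close to regular medium.

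Ifi27l2b was 2.33-fold higher in naive CM than in regular medium (log2 fold change 1.22, SE 0.064, edgeR adjusted p = 7.42e-11, higher in 4 of 4 libraries). In IFNγ/LPS CM it was 1.81-fold lower than in naive CM (log2 fold change -0.86, SE 0.064). Against regular medium it was 1.29-fold higher (log2 fold change 0.36, SE 0.065), a difference that depended on the scaling and was -0.02 with library totals alone. All 3 members thus rose in naive CM relative to regular medium, a call that 18.3% of all genes had. In IFNγ/LPS CM 1 member stood above naive CM and 2 stood below it, the opposite signs by which the family was chosen. Between those 2 media, 36.1% of all genes were called higher and 35.8% lower.

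**Figure D1:**
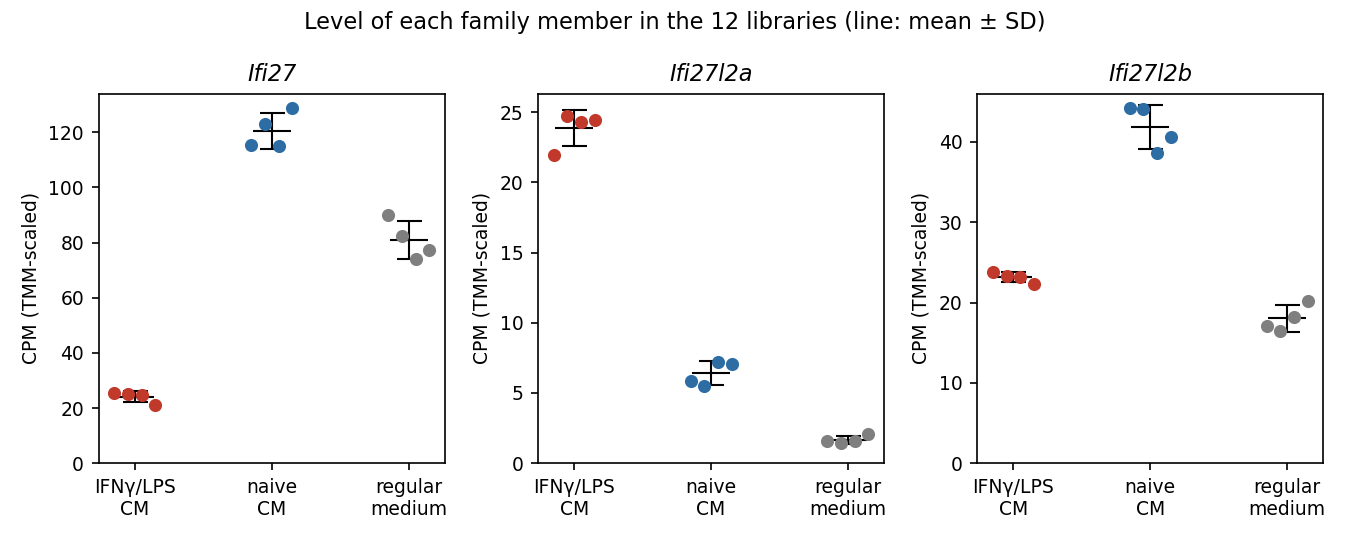
Level of Ifi27, Ifi27l2a and Ifi27l2b in CPM (vertical axes, linear, each with its own range) in the 4 libraries of each medium, with the mean and SD as black lines. Ifi27 is lowest in IFNγ/LPS CM (21.2 to 25.6 CPM), Ifi27l2a is highest there (22.0 to 24.7 CPM) and Ifi27l2b lies between its values in naive CM and in regular medium.

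The ratio of 2 members within a library does not depend on how libraries are scaled. Between naive CM and regular medium these ratios also differed, so the members rose by unequal amounts. The log2 ratio of Ifi27l2a to Ifi27 counts was -4.24 ± 0.20 in naive CM and -5.62 ± 0.30 in regular medium (SD, n = 4 each; a 2.59-fold shift). That of Ifi27l2b to Ifi27 was -1.53 ± 0.12 in naive CM and -2.17 ± 0.22 in regular medium (1.56-fold), and that of Ifi27l2a to Ifi27l2b was -2.72 ± 0.29 in naive CM and -3.45 ± 0.12 in regular medium (1.66-fold). In each of the 3 pairs the libraries of the groups did not overlap. The exact two-sided permutation test gave p = 0.0286 for each, the smallest that 4 against 4 allows. Benjamini-Hochberg adjustment over the 3 pairs gave the same value. The third ratio is fixed by the other 2, so these are not 3 separate tests. Its 1.66-fold shift could also depend on how reads shared by Ifi27l2a and Ifi27l2b were split. In IFNγ/LPS CM the same log2 ratios were -0.01 ± 0.17, -0.06 ± 0.09 and 0.04 ± 0.11 (SD, n = 4), each above its range in both other groups, since the counts of the 3 members were then nearly equal.

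Levels can be compared between genes only per length, and per kilobase of the longest coding transcript the members were not equal. The full annotated length was used, with no correction for fragment length, which matters most for the short Ifi27l2a transcript. In IFNγ/LPS CM, Ifi27l2a led with 51.5 ± 2.78 CPM per kb, before Ifi27 with 24.7 ± 2.01 and Ifi27l2b with 21.2 ± 0.555 CPM per kb (SD, n = 4 each). The lowest Ifi27 library, at 21.7, lay under the highest Ifi27l2b library, at 21.8, so these 2 did not separate. In naive CM the order was Ifi27 with 123 ± 6.66, Ifi27l2b with 38.3 ± 2.50 and Ifi27l2a with 13.8 ± 1.85 CPM per kb. In regular medium it was Ifi27 with 82.8 ± 7.05, Ifi27l2b with 16.5 ± 1.49 and Ifi27l2a with 3.59 ± 0.632 CPM per kb. With the shortest complete coding transcript of Ifi27, of 708 nt, its level in IFNγ/LPS CM became 34.1 CPM per kb and the place of Ifi27l2a at the top was kept.

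Per kilobase, Ifi27l2a was the main member of the family with IFNγ/LPS CM and Ifi27 with the other media, while by CPM the members had nearly equal shares with IFNγ/LPS CM (33.9% Ifi27, 33.6% Ifi27l2a, 32.5% Ifi27l2b). Per kilobase, Ifi27l2a made up 52.9 ± 2.41% of the family with IFNγ/LPS CM, 7.88 ± 1.11% with naive CM and 3.50 ± 0.658% in regular medium. Ifi27 made up 25.3 ± 1.87% in IFNγ/LPS CM, 70.3 ± 1.1% in naive CM and 80.4 ± 2.56% in regular medium (SD, n = 4 each). The share of Ifi27l2b was 21.8 ± 0.719% in IFNγ/LPS CM, 21.8 ± 1.56% in naive CM and 16.1 ± 1.95% in regular medium.

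The summed level of the 3 members, which does not depend on how reads were split among them, was 71.2 ± 2.23 CPM in IFNγ/LPS CM, 168.9 ± 6.89 CPM in naive CM and 100.5 ± 6.08 CPM in regular medium (SD, n = 4 each). The sum was thus 2.37-fold lower in IFNγ/LPS CM than in naive CM. In naive CM it was 1.68-fold higher than in regular medium (exact two-sided permutation test, p = 0.0286, higher in 4 of 4 libraries). These sums take no account of transcript length. Per kilobase, the log2 ratio of the sum in IFNγ/LPS CM to that in naive CM was -0.85, where CPM gave -1.25. Relative to regular medium the ratio was -0.08 per kilobase, where CPM gave -0.50.

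**Figure D2:**
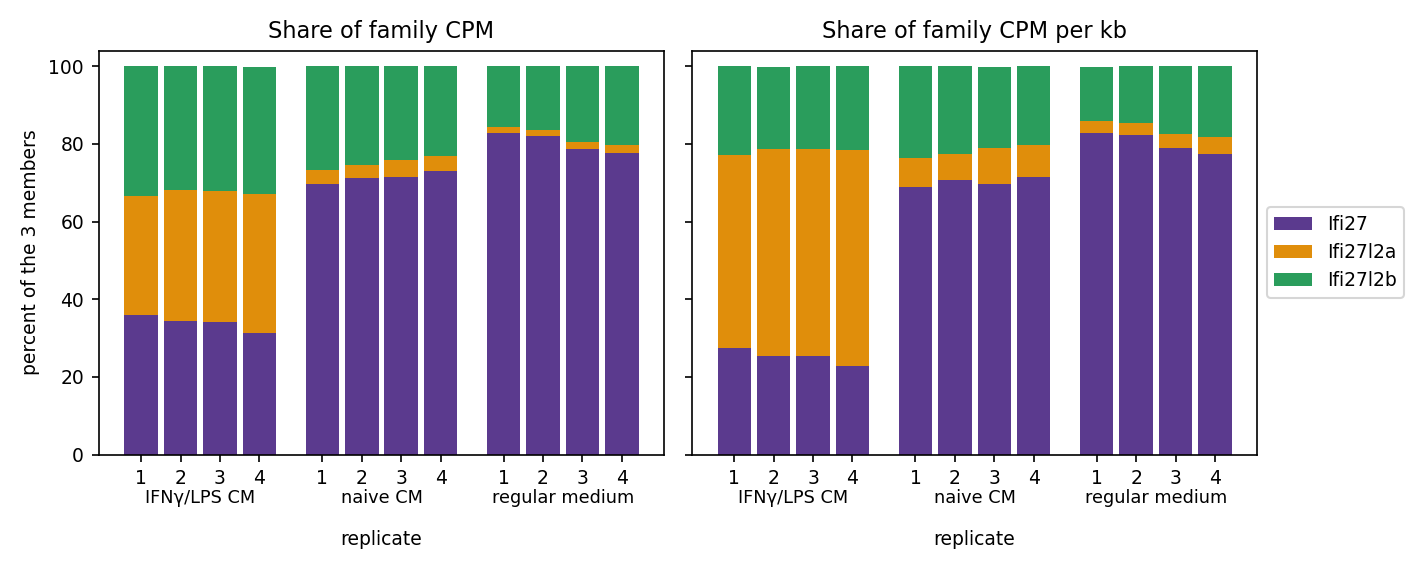
Share of each member in the summed level of the family, in percent, for each of the 12 libraries (bars, by replicate number), from CPM on the left and from CPM per kilobase of transcript on the right. Ifi27l2a takes 52.9% of the family per kilobase with IFNγ/LPS CM, 7.88% with naive CM and 3.50% with regular medium.

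Most other interferon-induced genes rose in the medium of stimulated macrophages. Of 46 other interferon-induced genes listed, 45 were tested. Between IFNγ/LPS CM and naive CM, 44 were higher and 1 was lower, where 71.9% of all genes passed the test (36.1% as higher and 35.8% as lower). The list's median log2 fold change was 6.13, against 0.004 over all genes tested. Against regular medium, 44 were again higher and 1 was lower, where 71.8% of all genes passed (35.4% as higher and 36.4% as lower). Cxcl10, which attracts T cells, reached 6299 ± 364 CPM with IFNγ/LPS CM, while the 4 naive CM libraries together held 17 counts. Rsad2, whose product blocks virus replication, reached 1250 ± 26.1 CPM, and naive CM held 7 counts. In IFNγ/LPS CM against naive CM, the log2 fold changes of Ifi27 and Ifi27l2b lay below those of all 45 genes. That of Ifi27l2a lay above 3 of them. The family was chosen by its signs in this comparison, so these places are only a description. In IFNγ/LPS CM against regular medium, Ifi27 and Ifi27l2b each lay above 1 of the 45, and Ifi27l2a above 7.

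The listed gene that fell was Ifitm1, of the interferon-induced transmembrane proteins that block virus entry. It had 0.626 ± 0.119 CPM with IFNγ/LPS CM and 1.08 ± 0.0959 CPM with naive CM (log2 fold change -0.78, SE 0.188, edgeR adjusted p = 0.00106). Its relatives rose. Ifitm3 had 1052 ± 87.0 CPM with IFNγ/LPS CM and 119 ± 3.43 CPM with naive CM (8.83-fold), and Ifitm2 rose 1.67-fold to 366 ± 19.8 CPM.

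The genes that carry the interferon signal rose as well. All 13 listed signalling genes were higher in IFNγ/LPS CM than in naive CM, a call that 36.1% of all genes had. Stat2 rose 16.8-fold to 370 ± 9.98 CPM, Irf9 rose 5.74-fold to 191 ± 5.37 CPM, and Irf1, which mediates interferon gamma responses, rose 40.5-fold. The receptor chain Ifnar2 rose 5.50-fold and Ifnar1 1.96-fold. Socs1, a feedback inhibitor, reached 90.7 ± 3.32 CPM, where naive CM gave 0.593 ± 0.0356 CPM. Ifngr1, a chain of the interferon gamma receptor, was 1.19-fold higher (log2 fold change 0.25), and with library totals it was lower instead (-0.14).

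**Figure D3:**
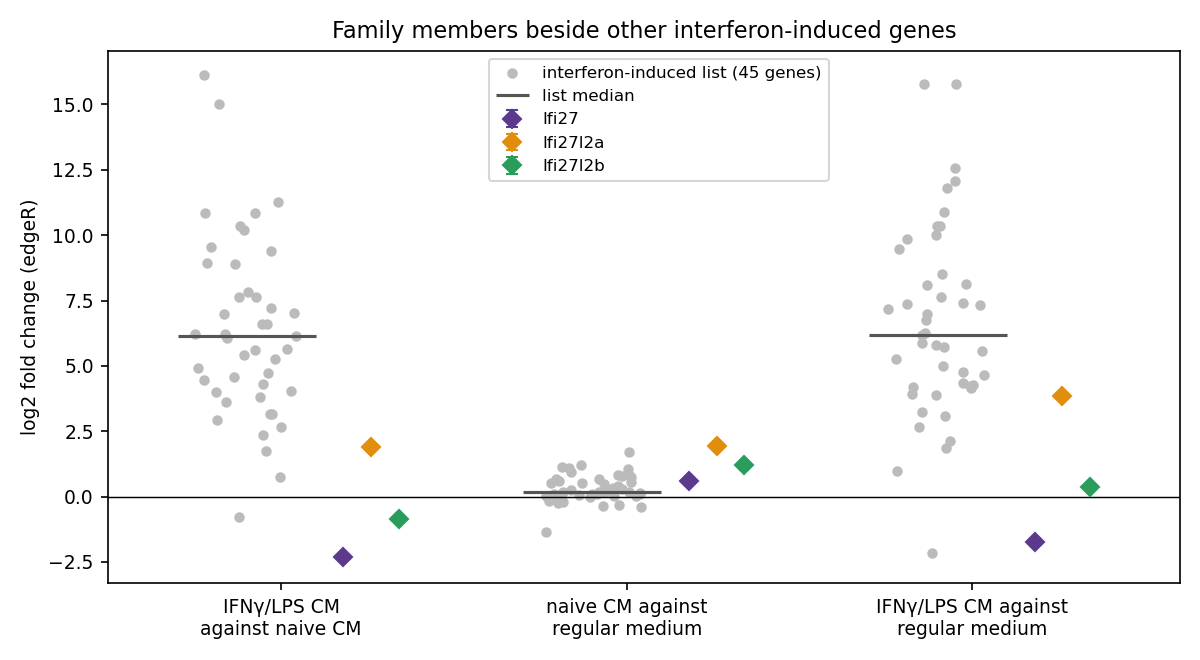
Log2 fold change (edgeR, vertical axis) of the 45 tested genes of the interferon-induced list (grey points, spread sideways for sight, with their median as a bar) and of the 3 family members (diamonds with SE, mostly smaller than the symbol) in each comparison. In IFNγ/LPS CM against naive CM, the comparison that chose the family, Ifi27 at -2.32 and Ifi27l2b at -0.86 lie below every grey point. In naive CM against regular medium, Ifi27l2a at 1.94 lies above every grey point.

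In naive CM against regular medium, most changes of the interferon-induced genes were under 2-fold, and Ifi27l2a and Ifi27l2b stood at the upper end. Of the 45 genes, 18 rose, 4 fell (Ifit3, Bst2, Ifit2 and Ifitm1) and 23 missed the threshold, beside 18.3% of all genes called higher and 16.4% lower. Their median log2 fold change was 0.18, that of all genes tested -0.017. Of the 18, only Oas2, Mx1 and Ifitm3 rose at least 2-fold. Ifitm3 rose 2.09-fold to 119 ± 3.43 CPM in naive CM against 56.9 ± 1.78 CPM in regular medium (edgeR adjusted p = 2.57e-11). Oas2, which makes an antiviral second messenger, had 1.03 ± 0.242 CPM in naive CM against 0.453 ± 0.108 CPM in regular medium. Ifitm1 fell to 1.08 ± 0.0959 CPM in naive CM, against 2.80 ± 0.408 CPM in regular medium (log2 fold change -1.37, edgeR adjusted p = 2.28e-06). The rise of Ifi27l2a exceeded that of all 45 listed genes, and that of Ifi27l2b exceeded 44 of them. The gene above Ifi27l2b was Oas1g, which summed to 14 counts with naive CM and 4 with regular medium and did not pass (edgeR adjusted p = 0.141). Ifi27 lay above 32 of the 45.

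Among the signalling genes, 6 rose, 2 fell and 5 missed the threshold in naive CM against regular medium, where 18.3% of all genes were called higher and 16.4% lower. Socs3 changed most, 1.31-fold. Irf9 rose 1.16-fold (edgeR adjusted p = 0.00113). Ifnar1 and Ifngr1 fell, with log2 fold changes of -0.14 and -0.15.

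Genes whose proteins are known to work with ISG12 proteins moved in both directions. Of 7 listed, 3 were higher and 4 were lower in IFNγ/LPS CM than in naive CM, where 36.1% of all genes were called higher and 35.8% lower. The Nr4a nuclear receptors, partners of mouse ISG12 in the vessel wall, were the lower ones together with Skp2, a ubiquitin ligase subunit that binds human IFI27. Nr4a1 had 0.913 ± 0.242 CPM with IFNγ/LPS CM and 1.91 ± 0.170 CPM with naive CM (log2 fold change -1.06, SE 0.272). Nr4a2 had 1.09 ± 0.0263 CPM with IFNγ/LPS CM and 2.82 ± 0.233 CPM with naive CM, and Nr4a3, at 12 counts against 51 over the groups, was barely detected. Xpo1, the exportin that carries Nr4a1 out of the nucleus, rose 1.49-fold to 203 ± 7.66 CPM. Bak1 and Bax, pore-forming proteins of apoptosis at the mitochondrion, rose 1.86-fold and 1.40-fold, and with library totals Bax missed the threshold (log2 fold change 0.10 and edgeR adjusted p = 0.062).

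In naive CM against regular medium, Skp2, Xpo1 and Bak1 rose 1.31-fold, 1.20-fold and 1.18-fold. Bax passed there with a log2 fold change of 0.12 (edgeR adjusted p = 0.0432) and lost its call without naive CM replicate 2, 3 or 4, without regular medium replicate 2 or 4, and without any IFNγ/LPS CM library, with adjusted p of 0.0522 to 0.147. Nr4a3 passed with -0.88 (edgeR adjusted p = 0.0326) and lost its call without regular medium replicate 3 or any naive CM library, with adjusted p of 0.0501 to 0.113.

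Genes around the family were compared next. Of 11 other protein-coding genes within 250 kb, 4 were tested and 7 had too few counts. In naive CM against regular medium none of the 4 passed the edgeR test, which 34.7% of all genes passed, so 4 genes without a call do not set the family apart. Ddx24, an RNA helicase gene and the nearest tested gene beside Ifi27, had 109 ± 4.45 CPM in naive CM against 112 ± 6.01 CPM in regular medium (log2 fold change -0.04, SE 0.043). Between IFNγ/LPS CM and naive CM, Ddx24 rose 1.98-fold to 216.4 ± 4.26 CPM, whereas Ifi27 next to it was 5.00-fold lower. On the other side, Ppp4r4, a phosphatase subunit, had 0.457 ± 0.153 CPM with IFNγ/LPS CM and 0.784 ± 0.179 CPM with naive CM (log2 fold change -0.77, SE 0.273, edgeR adjusted p = 0.0169), a call that was lost without IFNγ/LPS CM replicate 2 (adjusted p = 0.0628) or naive CM replicate 1 (adjusted p = 0.0621). Otub2, a deubiquitinase, had 2.97 ± 0.139 CPM with IFNγ/LPS CM and 3.00 ± 0.310 CPM with naive CM. It missed the threshold (log2 fold change -0.01, SE 0.119), but with library totals it was called lower (-0.40, edgeR adjusted p = 0.00514).

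**Figure D4:**
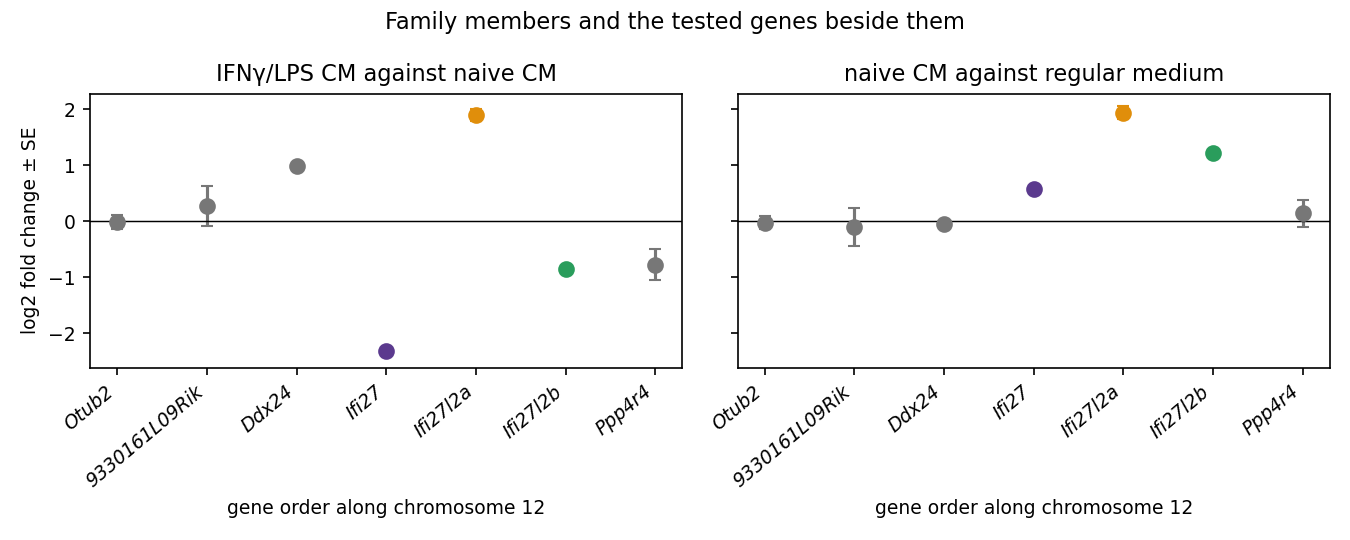
Log2 fold change with SE (vertical axis) of the 3 family members (coloured) and the 4 tested genes within 250 kb (grey), in their order along chromosome 12 and not to scale. In IFNγ/LPS CM against naive CM adjacent genes run from -2.32 (Ifi27) to 1.90 (Ifi27l2a). In naive CM against regular medium the members lie at 0.58, 1.94 and 1.22, and none of the 4 other genes passed the test, which 34.7% of all genes passed.

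The genes with the most similar pattern over the 12 libraries were named by the smallest Euclidean distance between centred log2 CPM profiles, as a description. For Ifi27 these were Sardh, Nudt4, A430018G15Rik, Serpinb8 and Ank, at distances of 0.400 to 0.519. Sardh, a mitochondrial sarcosine dehydrogenase, averaged 10.0 CPM in IFNγ/LPS CM, 44.5 CPM in naive CM and 32.6 CPM in regular medium. For Ifi27l2a they were Tubb3, Itih5, Enpp2, Sema6b and Gda, at 0.804 to 1.27. Tubb3, a tubulin best known from neurons, averaged 120 CPM in IFNγ/LPS CM, 31.5 CPM in naive CM and 11.0 CPM in regular medium. For Ifi27l2b they were Qsox1, Mdm1, Hjurp, Reep4 and Cacna2d1, at 0.309 to 0.560. Qsox1, an enzyme that forms disulfide bonds, averaged 531 CPM in IFNγ/LPS CM, 897 CPM in naive CM and 391 CPM in regular medium. None of these 15 genes is on the interferon-induced list, which holds only 45 of the 16140 genes tested, so their absence says little. By Pearson correlation in place of distance, 1 of the 5 genes was the same for Ifi27, 1 for Ifi27l2a and 2 for Ifi27l2b.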

How the data were processed

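Polyadenylated RNA was made into stranded libraries and sequenced in paired reads of 150 bp, per the labels' protocols. The authors deposited a table of estimated counts (expected counts) in whole numbers. Salmon 1.10.1 and the mm10 build are named in the submitters' processing notes. The sources used here name neither the annotation release nor the way transcripts were summed and rounded. Columns were joined to titles by name, where M0 was taken to mean naive and M1 IFNγ/LPS-treated macrophages by common usage, on which every direction rests. Symbols came from GENCODE M21 (51344 of 55822 identifiers, 92%, matched without version).

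In R 4.3.3, edgeR 4.0.16 filterByExpr left 16140 genes. Counts were TMM-scaled and tested with the quasi-likelihood F-test (robust, two-sided, 1 model of 12 libraries, 9 residual degrees of freedom), with Benjamini-Hochberg adjustment over all genes tested and a threshold of 0.05. An SE is the log2 fold change over the square root of F. The analysis was tested on simulated data with few genes changed, equally up and down, so the effect of the scaling was not covered. The number in the titles was not used as a pairing, since deviations of same-numbered libraries correlated at -0.0636 to 0.0608 over 12 pairs, none over 0.1.

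Genes named are the members, their tested neighbours, the 5 nearest in pattern, all genes of the lists of signalling and partner genes, and of the interferon-induced list the 4 largest rises (at least 5 CPM in the higher group) and every gene that fell between IFNγ/LPS CM and naive CM, plus up to 6 called in naive CM; the text gives part of these, 1 result is not reported here, and the marker genes (of other cell types and of smooth muscle), Oas1g in naive CM, Ifit3, Bst2 and Ifit2 were picked after their values were seen. Members and lists were chosen with earlier results of these data known. Alternatives were DESeq2 size factors, library totals, no filter, a filter of 1 CPM in 4 or more libraries, limma-voom (limma 3.58.1), the Wald test of DESeq2 1.42.0, a block for the replicate number, fits of only 2 groups, and each library left out.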

Additional observations from a re-analysis of the deposited data

Results flagged for a closer look

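In 108 sets of 4 libraries, 36 quantities in each of 3 media, a library was taken as standing apart when its gap to the nearest other exceeded the 95% critical value of Dixon's test, which chance gives in about 1 of 20 sets. There were 6 such cases. Ifi27l2a had 22.0 CPM in IFNγ/LPS CM replicate 1, against 24.3 to 24.7 CPM in the other libraries of the group, and the log2 fold change against naive CM kept within 1.83 to 1.96 when any library was left out. Irf1 had 1490 CPM in IFNγ/LPS CM replicate 4 against 1600 to 1620 CPM in the others. Xpo1 had 191 CPM in IFNγ/LPS CM replicate 2 against 206 to 207 CPM, and Nr4a1 had 1.27 CPM there against 0.767 to 0.832 CPM. Nr4a3 had 0.725 CPM in regular medium replicate 3 against 0.398 to 0.434 CPM. Rsad2 had 0.059 CPM in regular medium replicate 2, which is 4 counts, and none in the other libraries of that group.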

How the results depend on the processing

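In naive CM against regular medium, every one of 60 alternatives for the 3 members kept its direction and stayed past the test. The log2 fold change ranged over 0.54 to 0.63 for Ifi27, 1.86 to 2.07 for Ifi27l2a and 1.18 to 1.28 for Ifi27l2b. With the replicate number as a block no call of a member changed, and among the other genes named only Nr4a3 in naive CM against regular medium lost its call (log2 fold change -0.87, adjusted p = 0.0526).

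With library totals in place of TMM, the median over all genes in IFNγ/LPS CM relative to naive CM was -0.38 on the log2 scale, and the calls became 3279 higher and 9371 lower. Against regular medium they became 3279 higher and 9597 lower. Relative to naive CM, Ifi27 was then at -2.71, Ifi27l2a at 1.52, Ifi27l2b at -1.24 and the family sum at -1.63. Relative to regular medium, Ifi27 was at -2.13, Ifi27l2a at 3.46, Ifi27l2b at -0.02, a reversal, and the sum at -0.88. Ifngr1 turned to -0.14 and was the 1 signalling gene called lower in either comparison.

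Per kilobase, the sum in IFNγ/LPS CM changed to -0.85 relative to naive CM and -0.08 relative to regular medium, and the shares became those in the report (25.3, 52.9 and 21.8% in IFNγ/LPS CM; 7.88 and 21.8% for Ifi27l2a and Ifi27l2b in naive CM; 3.50% for Ifi27l2a in regular medium).

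The 1 partner gene called lower in naive CM, Nr4a3, became 0 without a filter, with the 1 CPM filter, with DESeq2, with the block and in 5 fits that left out a library (0 to 1). Without a filter 2 interferon-induced genes were lower in IFNγ/LPS CM than in regular medium, against 1. With the 1 CPM filter the median of the partner genes there was 0.03, against -0.53. Pearson correlation kept 1, 1 and 2 of the 5 nearest genes of Ifi27, Ifi27l2a and Ifi27l2b. Otub2, near 0, changed sign in IFNγ/LPS CM relative to naive CM with limma-voom (0) and when a library was left out (-0.07 to 0.04), and likewise in naive CM against regular medium (-0.08 to 0.03). For the other reversals and moved values the cause was not tested.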
